A study of Caenorhabditis elegans with 8 samples.

Results

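The 8 genes described here encode the proteins of the meiotic chromosome axis of Caenorhabditis elegans: the HORMA domain genes htp-3, htp-1, htp-2 and him-3, the meiotic kleisin genes rec-8, coh-3 and coh-4, and lab-1. They were chosen by name, each was found once among the 46748 gene identifiers of the count files, and all 8 passed the filter on low counts that left 12664 genes for testing. RNA came from whole late embryos of 2 strains, in 4 replicates per strain. In both, LIN-52, a subunit of the DREAM repressor complex, is tagged with GFP and 3xFLAG at its own locus. The strain called WT has allele bn139, in which the tagged protein is otherwise unaltered. The strain called 3A has allele bn151, in which the tagged protein also carries L42A, C44A and E46A, substitutions meant to break the contact between LIN-35 and the MuvB part of DREAM. Adults were grown for 72 h at 20 °C, and their embryos were held for up to 3.5 h before freezing. The study compared 3A with WT to find genes whose expression differs once that contact is lost, and the axis genes are read here in that comparison.

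In meiotic prophase the sister chromatids of each chromosome are organised as loops along a protein axis. Cohesin rings closed by a meiotic kleisin hold the sisters together, and HORMA domain proteins assemble on this cohesin core, where they promote homologue pairing, break formation and synapsis. In C. elegans HTP-3 is the scaffold to which HIM-3, HTP-1 and HTP-2 bind, and HTP-1, HTP-2 and LAB-1 mark the chromosome arm on which sister cohesion is protected at the first meiotic division. In an embryo only the germline precursors go on to form meiotic cells, long after hatching. DREAM is known in worms for keeping germline genes low in somatic cells. In whole embryos, fewer cells that contain a transcript and less of it per cell cannot be told apart.

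Libraries held 14667743 to 68040557 read pairs assigned to genes, and levels are given as CPM, the counts scaled to a common library size with TMM factors (trimmed mean of M-values). Values for single libraries are listed in the order of replicates 1 to 4, and means are given ± SD over the 4 libraries of a genotype. Ribosomal RNA genes took 0.720% to 3.24% of these counts in WT and 1.75% to 40.7% in 3A. The altered gene itself, lin-52, was measured at 12.3, 3.70, 6.36 and 4.82 CPM across the WT libraries and 9.58, 3.80, 5.55 and 8.52 CPM across the 3A libraries, and its adjusted p in edgeR was 0.998. The substitutions are not visible in gene counts. All 14 listed markers of embryonic somatic tissues and all 12 listed markers of germline precursors were detected and tested. The somatic markers summed to 668 to 3001 CPM in WT, highest in replicate 1, and to 816 to 2001 CPM in 3A. The 7 listed adult markers (vitellogenins and col-19, an adult cuticle collagen) split the libraries across genotype. Their summed level was 100.4 to 117 CPM in WT replicate 4 and 3A replicates 3 and 4, and 2.18 to 14.3 CPM in the other 5 libraries.

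No axis gene passed the test between 3A and WT. With edgeR's quasi-likelihood test at an adjusted p under 0.05 over all genes tested, 0 of the 8 were called, where 0.371% of all genes were. DESeq2 also called 0 of 8, where it called 1.33% of all genes. At an unadjusted p under 0.05, 2 of 8 (lab-1 and coh-3) were higher in 3A, against 5.72% of all genes, and none was lower. This count was 0 without 3A replicate 3, with scaling by library size alone and without the libraries high in adult markers, it was 3 without 3A replicate 2, and its members changed with the library left out. The fitted log2 fold change of 3A over WT was above 0 for 8 of 8, against 42.8% of all genes, and ranged from 0.03 for him-3 to 0.98 for lab-1. The median was 0.51 for the axis genes and -0.08 for all genes tested. When libraries were scaled by size alone the median of all genes moved by -0.32, him-3 and coh-4 then had values below 0, and the other 6 axis genes ranged from 0.0074 to 0.61. No axis gene had groups whose CPM values did not overlap, while 6.16% of all genes tested did.

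**Figure D1:**
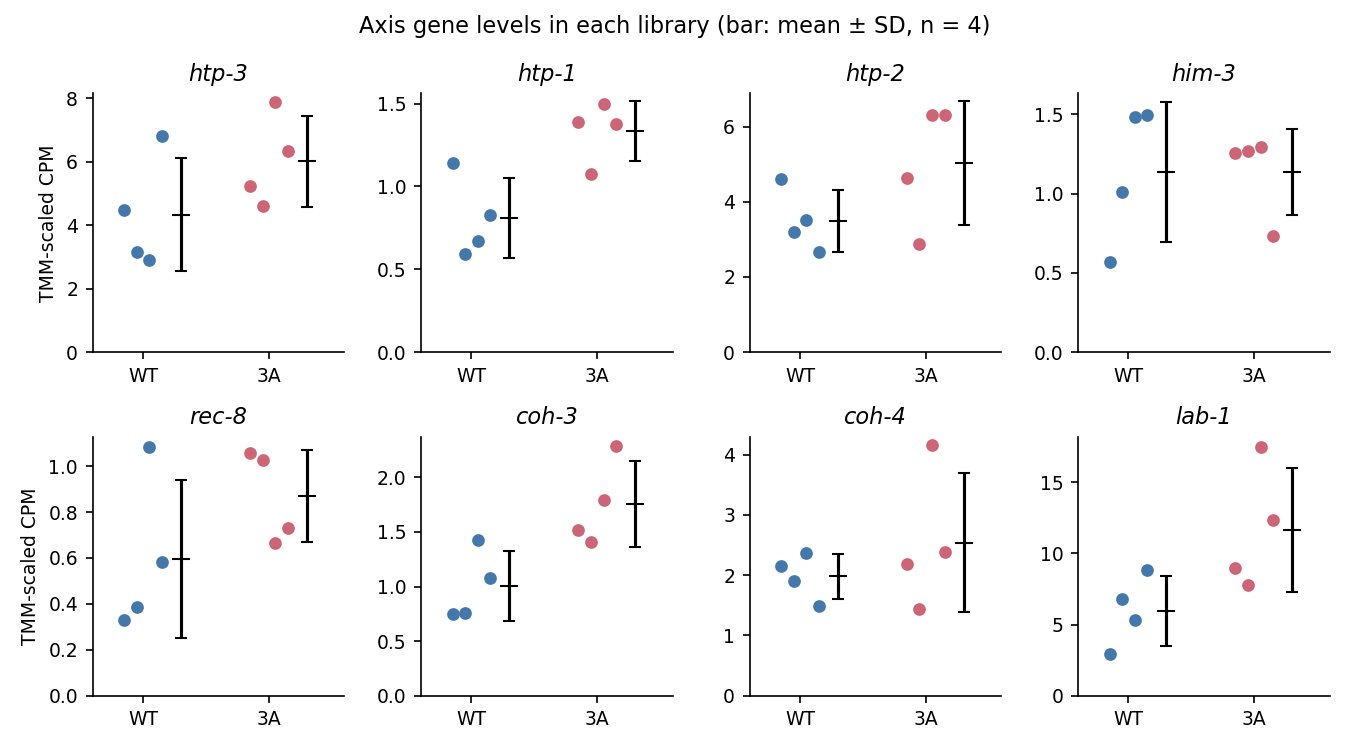
TMM-scaled CPM of each axis gene (vertical axis, from 0) in the 4 WT and 4 3A libraries, with replicates 1 to 4 from left to right and the mean ± SD beside them. The 3A mean lies above the WT mean for every gene but him-3, where both are 1.14 CPM, and the groups overlap in every panel.

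htp-3 (WBGene00002034; WBcel235 chromosome I, 4827072 to 4829791, plus strand), the scaffold gene, has 1 annotated transcript of 9 exons. Its level was 4.46, 3.15, 2.91 and 6.81 CPM across the WT libraries and 5.22, 4.61, 7.88 and 6.32 CPM across the 3A libraries. WT replicate 4 lay above 3 of the 4 3A libraries, and only 3A replicate 3 exceeded it. The means were 4.33 ± 1.79 CPM for WT and 6.01 ± 1.43 CPM for 3A, with a log2 fold change of 0.49 (SE 0.33; 95% interval -0.23 to 1.21; adjusted p in edgeR = 0.658). It was 0.32 without 3A replicate 3 and 0.79 without WT replicate 4. The 3 libraries with high adult markers had the 3 highest htp-3 levels, 6.32 to 7.88 CPM against 2.91 to 5.22 CPM in the other 5. The part of adult material in this was not tested beyond the fit without those libraries, in which the log2 fold change was 0.46 (SE 0.40).

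htp-1 (WBGene00002032; chromosome IV, 5390189 to 5391557, minus strand) and htp-2 (WBGene00002033; chromosome IV, 6419522 to 6420898, plus strand) are paralogues that act together in cohesion protection. The annotation gives each 4 exons and 1056 coding bases. The 2 genes are close copies, and reads placed in more than 1 position were not counted, so the level of either is uncertain. htp-1 was at 1.14, 0.594, 0.673 and 0.830 CPM across the WT libraries and 1.39, 1.08, 1.5 and 1.37 CPM across the 3A libraries. Only WT replicate 1 reached into the 3A range, above 3A replicate 2. The means were 0.809 ± 0.241 CPM for WT and 1.33 ± 0.180 CPM for 3A, a log2 fold change of 0.73 (SE 0.36; 95% interval -0.05 to 1.51; adjusted p in edgeR = 0.548). These values rest on 10 to 88 read pairs per library.

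htp-2 was at 4.61, 3.19, 3.51 and 2.66 CPM across the WT libraries and 4.63, 2.87, 6.31 and 6.32 CPM across the 3A libraries. 3A replicate 2 was as low as the WT libraries, and 3A replicates 3 and 4 stood above all others. The log2 fold change was 0.51 (SE 0.32; 95% interval -0.19 to 1.21; adjusted p in edgeR = 0.639). It was -0.04 (SE 0.43) when the 3 libraries with high adult markers, which include 3A replicates 3 and 4, were left out. Within a library, where scaling cancels, htp-2 had 3.20 to 5.37 times the counts of htp-1 in WT and 2.67 to 4.60 times in 3A, ranges that overlap (exact two-sided permutation p = 0.314, or 0.419 after adjustment over the 4 ratios).

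him-3 (WBGene00001862; chromosome IV, 6977508 to 6978765, plus strand) encodes an axis protein needed for synapsis and crossing over between homologues. It was at 0.569, 1.01, 1.48 and 1.49 CPM across the WT libraries and 1.26, 1.27, 1.30 and 0.733 CPM across the 3A libraries. All 4 3A values lay inside the WT range. The log2 fold change of 0.03 (SE 0.40; 95% interval -0.83 to 0.90; adjusted p in edgeR = 0.988) was the smallest of the 8, and its sign changed in 5 of the alternative fits. Its lowest library, 3A replicate 4, held 8 read pairs, with an exact Poisson interval of 3.45 to 15.8 that covers counting error only. Its interval allows a 3A level between 0.561 and 1.87 times that of WT. The gene shares 24 bases of its span with prkl-1 of the other strand, whose reads the strand-specific counts leave out.

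Of the kleisins, rec-8 (WBGene00004333; chromosome IV, 13349122 to 13353193, minus strand) encodes the one that holds sister chromatids together through the first meiotic division. It had the lowest mean per length of exon, and its levels were 0.330, 0.387, 1.09 and 0.581 CPM across the WT libraries and 1.06, 1.03, 0.665 and 0.733 CPM across the 3A libraries. WT replicate 3 was the highest of all 8 libraries, and the other 3 WT libraries lay below every 3A library. The log2 fold change was 0.51 (SE 0.46; 95% interval -0.49 to 1.52; adjusted p in edgeR = 0.756). It was 0.32 without WT replicate 1, 0.34 without WT replicate 2 and 1.07 without WT replicate 3 (adjusted p in edgeR 0.569 or more with any 1 library left out), and 0.0074 with scaling by library size alone. WT replicate 4 held only 7 rec-8 read pairs, with an exact Poisson interval of 2.81 to 14.4.

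coh-3 (WBGene00000592; chromosome V, 14457422 to 14460141, plus strand) and coh-4 (WBGene00021560; chromosome V, 4169912 to 4175640, minus strand) encode closely related kleisins that can replace each other in axis assembly. The levels of coh-3 were 0.749, 0.760, 1.43 and 1.08 CPM across the WT libraries and 1.52, 1.41, 1.79 and 2.29 CPM across the 3A libraries. The groups overlapped only between WT replicate 3 and 3A replicate 2. The means were 1.00 ± 0.322 CPM for WT and 1.75 ± 0.392 CPM for 3A, a log2 fold change of 0.78 (SE 0.36; 95% interval 0.0018 to 1.56; edgeR unadjusted p = 0.0496, adjusted p = 0.511).

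coh-4 was at 2.16, 1.91, 2.36 and 1.49 CPM across the WT libraries and 2.18, 1.43, 4.15 and 2.38 CPM across the 3A libraries. Only 3A replicate 3 stood apart, and 3A replicate 2 was the lowest of all 8. The log2 fold change was 0.35 (SE 0.36; 95% interval -0.45 to 1.14; adjusted p in edgeR = 0.797), and it was -0.03 without 3A replicate 3 and -0.28 (SE 0.44) without the 3 libraries with high adult markers. The gene shares 327 bases of its span with Y45G5AM.7 on the same strand, and reads that cannot be given to 1 of them count for neither. Within a library coh-4 had 1.38 to 2.88 times the counts of coh-3 in WT and 1.02 to 2.31 times in 3A. The mean log2 ratio differed by -0.56 between 3A and WT (exact two-sided permutation p = 0.200, or 0.419 after adjustment over the 4 ratios), and the ranges overlap. Reads shared by these related genes were not counted to either.

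lab-1 (WBGene00007278; chromosome I, 9657012 to 9658023, minus strand) encodes a worm protein that brings protein phosphatase 1 to the chromosome and opposes the Aurora B kinase AIR-2. It was at 2.91, 6.78, 5.35 and 8.80 CPM across the WT libraries and 8.99, 7.77, 17.4 and 12.4 CPM across the 3A libraries. Only WT replicate 4 exceeded any 3A library, namely 3A replicate 2. The means were 5.96 ± 2.48 CPM for WT and 11.6 ± 4.33 CPM for 3A. The log2 fold change of 0.98 (SE 0.37; 95% interval 0.17 to 1.79) was the largest of the 8, with an edgeR unadjusted p of 0.0221 and an adjusted p of 0.450, and 3.60% of the genes tested had a larger one. Without the libraries with high adult markers it was 0.72 (SE 0.43). The counts of lab-1 were 0.651 to 2.15 times those of htp-3 in WT and 1.68 to 2.22 times in 3A (exact two-sided permutation p = 0.314, or 0.419 after adjustment over the 4 ratios), and WT replicate 1 alone was below 1. Without that library the mean log2 ratio was 0.13 higher in 3A, in place of 0.48. lab-1 shares 52 bases of its span with T05F1.11 of the other strand, whose reads the strand-specific counts leave out.

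**Figure D2:**
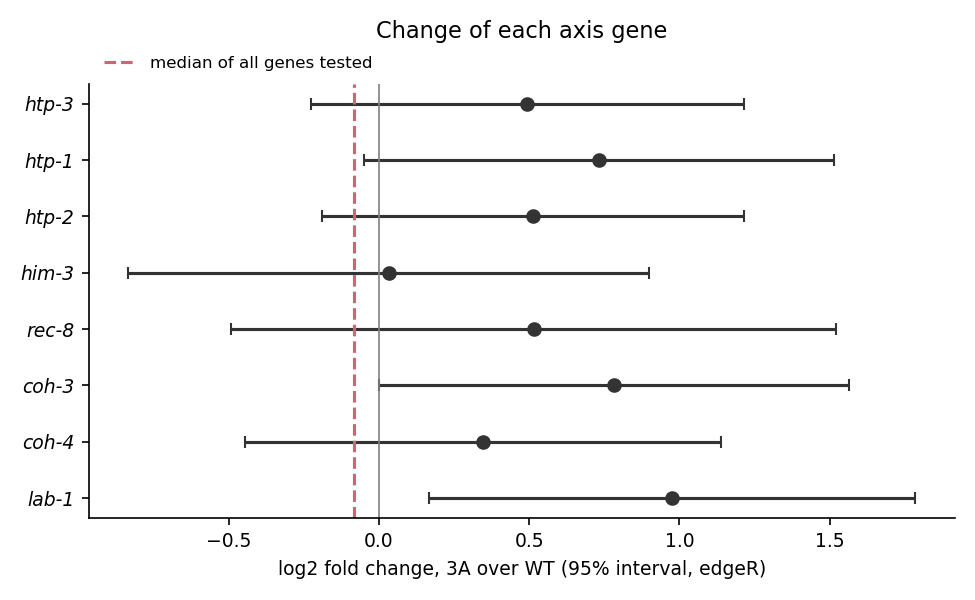
Log2 fold change of 3A over WT (horizontal axis) for each axis gene, with its 95% interval from the edgeR fit and the median of all genes tested as a dashed line at -0.08. All 8 points lie above that median, and the intervals of lab-1 and coh-3 lie above 0, that of coh-3 only just.

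Levels of different genes were compared per length of exon, as RPKM, the TMM-scaled CPM divided by the exon length in kilobases. In WT the order was lab-1 at 6.86 ± 2.85 RPKM, htp-2 at 2.82 ± 0.668, htp-3 at 1.85 ± 0.763, him-3 at 0.974 ± 0.378, coh-4 at 0.965 ± 0.182, htp-1 at 0.658 ± 0.196, coh-3 at 0.474 ± 0.152 and rec-8 at 0.242 ± 0.140 RPKM (SD, n = 4 per genotype). Each gene's range overlapped with that of the next in this order. Within single WT libraries, coh-4 was above htp-1 and coh-3 above rec-8 in 4 of 4, him-3 was above coh-4 in 2 of 4, and each other gene was above the next in 3 of 4. In the 3A libraries the mean order was the same at both ends, with lab-1, htp-2 and htp-3 highest and coh-3 and rec-8 lowest. There lab-1, at 13.4 ± 4.98 RPKM, lay above htp-2, at 4.07 ± 1.33 RPKM, in every library with no overlap. coh-3, at 0.827 ± 0.185 RPKM, lay likewise above rec-8, at 0.353 ± 0.0815 RPKM. The positions of htp-1, htp-2, coh-3 and coh-4 are uncertain, since reads shared between related or overlapping genes were not counted.

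**Figure D3:**
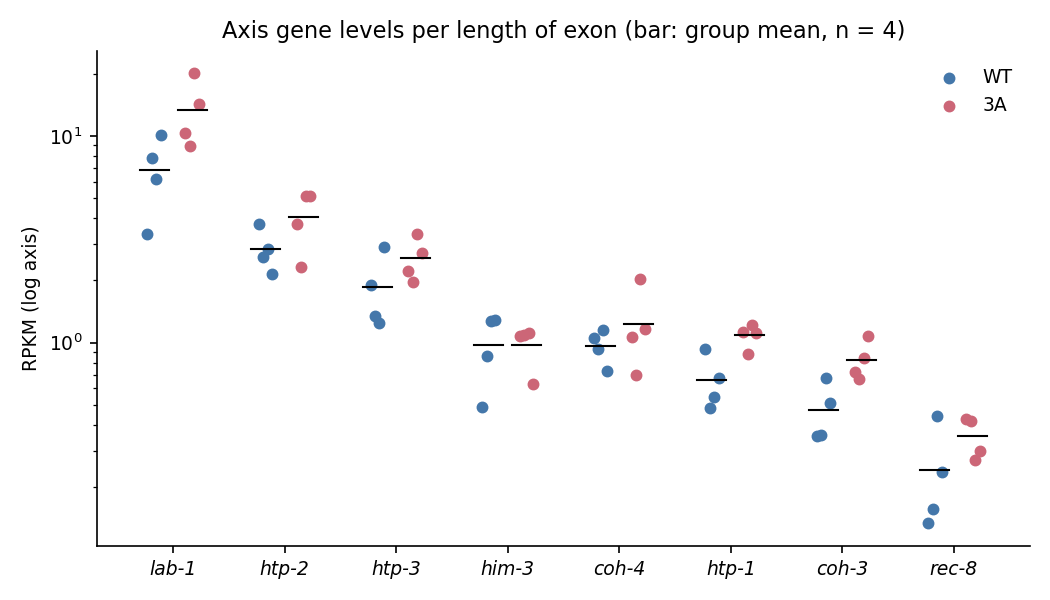
Level of each axis gene in RPKM (log axis) in the 4 WT and 4 3A libraries, in the WT order, with a bar at each group mean. lab-1 is the highest and rec-8 the lowest by mean in both groups, and neighbouring genes overlap in WT.

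For comparison, scc-1, the kleisin of mitotic cohesin, was at 6.31 ± 2.96 RPKM in WT and 6.42 ± 1.45 RPKM in 3A (SD, n = 4 per genotype), with a log2 fold change of 0.02 (SE 0.33; adjusted p in edgeR = 0.993). coh-1, a further kleisin of somatic cells, was at 2.35 ± 1.17 and 2.96 ± 1.16 RPKM. The summed RPKM of rec-8, coh-3 and coh-4 came to 14.8%, 35.8%, 34.4% and 34.7% of the scc-1 level in WT replicates 1 to 4 and to 37.3%, 38.0%, 44.7% and 31.5% in 3A replicates 1 to 4. By these counts the meiotic kleisins together were below scc-1 in all 8 libraries, and WT replicate 1, with the highest scc-1 level, had the lowest share. Reads shared by coh-3 and coh-4, or by coh-4 and Y45G5AM.7, are not in the sum, which may therefore be too low. The count ratio of rec-8 to scc-1 was 0.0148 to 0.0772 in WT and 0.0426 to 0.103 in 3A (exact two-sided permutation p = 0.457, or 0.457 after adjustment over the 4 ratios, with a mean log2 ratio 0.57 higher in 3A, or 0.067 higher when WT replicate 1 is left out). mdf-2, which encodes the HORMA domain protein of the spindle checkpoint, was far more abundant, at 76.0 ± 18 RPKM in WT and 100.4 ± 22.3 RPKM in 3A, with a log2 fold change of 0.40 (SE 0.29; adjusted p in edgeR = 0.688).

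The genes that work with the axis were read against the same background. That is 42.8% of all genes tested with a log2 fold change above 0 and 0.371% called. Of 12 genes for mitotic kleisins and cohesin partners, 11 had a log2 fold change above 0, the median was 0.25 and 0 were called. The smallest p in that list was that of sep-1, the separase that cleaves kleisins at anaphase, at 8.38 ± 4.69 CPM for WT and 19.3 ± 3.79 CPM for 3A. Its log2 fold change was 1.20 (SE 0.36; adjusted p in edgeR = 0.314), and it passed when WT replicate 1 was left out (1.69; adjusted p = 0.00385). Of the 11 tested genes among regulators of the axis and partners of protein phosphatase 1 and Aurora B, 8 had a value above 0, with a median of 0.16 and 0 called. bub-1, a checkpoint kinase gene, had the smallest p there (log2 fold change 0.30, SE 0.27; adjusted p in edgeR = 0.757). None of the 4 tested HORMA domain genes outside the axis was called, with 2 above 0 and a median of 0.05.

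The other parts of the meiotic machinery held 1 called gene. The background was again 42.8% of all genes tested above 0 and 0.371% called. Of the 8 genes of the synaptonemal complex central region, the structure that joins paired axes, 7 had a log2 fold change above 0, the median was 0.34, and only syp-1 was called. syp-1 rose from 7.02 ± 0.740 to 44.5 ± 7.27 CPM (SD, n = 4 per genotype), a log2 fold change of 2.67 (SE 0.25; adjusted p in edgeR = 0.000590). Per length this took syp-1 from 2.30 ± 0.243 RPKM, between htp-2 and htp-3, to 14.6 ± 2.38 RPKM, close to lab-1 in 3A. Without the 3 libraries with high adult markers its log2 fold change was 2.57 and its adjusted p in edgeR was 0.224, in a fit with 3 WT and 2 3A libraries that called 1 gene in all. Of 24 genes for pairing, break formation and crossing over, 22 were above 0, the median was 0.37 and 0 were called. dsb-2, which promotes break formation, had the smallest p among them (log2 fold change 1.1, SE 0.30; adjusted p in edgeR = 0.272; DESeq2 adjusted p = 0.0485).

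Marker lists of several cell types were read beside the axis genes. Of all genes tested, 42.8% had a log2 fold change above 0 and 0.371% were called. All 7 adult intestine or hypodermis markers had a log2 fold change above 0, with a median of 0.80 and 0 called, while 4 of 14 embryonic soma markers did, with a median of -0.20 and 0 called. All 12 germline precursor markers had a log2 fold change above 0, with a median of 0.62 and 0 called, and their summed level was 30.6 to 102 CPM in WT and 63.5 to 126 CPM in 3A. All 8 tested markers of the oocyte or adult gonad were above 0, with a median of 0.55, 0 called, and sums of 8.29 to 18.2 CPM in WT and 12 to 28.0 CPM in 3A. The summed level of the 8 axis genes was 16.9 to 23.8 CPM in WT and 21.5 to 41.0 CPM in 3A. The 2 highest of these sums, 41.0 CPM in 3A replicate 3 and 32.5 CPM in 3A replicate 4, and the highest WT sum, 23.8 CPM in replicate 4, were those of the 3 libraries with high adult markers. Among single axis genes, only htp-3 was higher in all 3 of these libraries than in every other library. 3A replicate 1, with the lowest adult marker sum (2.18 CPM), had an axis sum of 26.2 CPM, above that of WT replicate 4. Of 12 sperm markers only 3 had enough counts to be tested, with sums of 1.22 to 2.66 CPM over all 8 libraries and msp-10 and sss-1 at 0 throughout. The part of these cell types in the axis values was not tested.

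**Figure D4:**
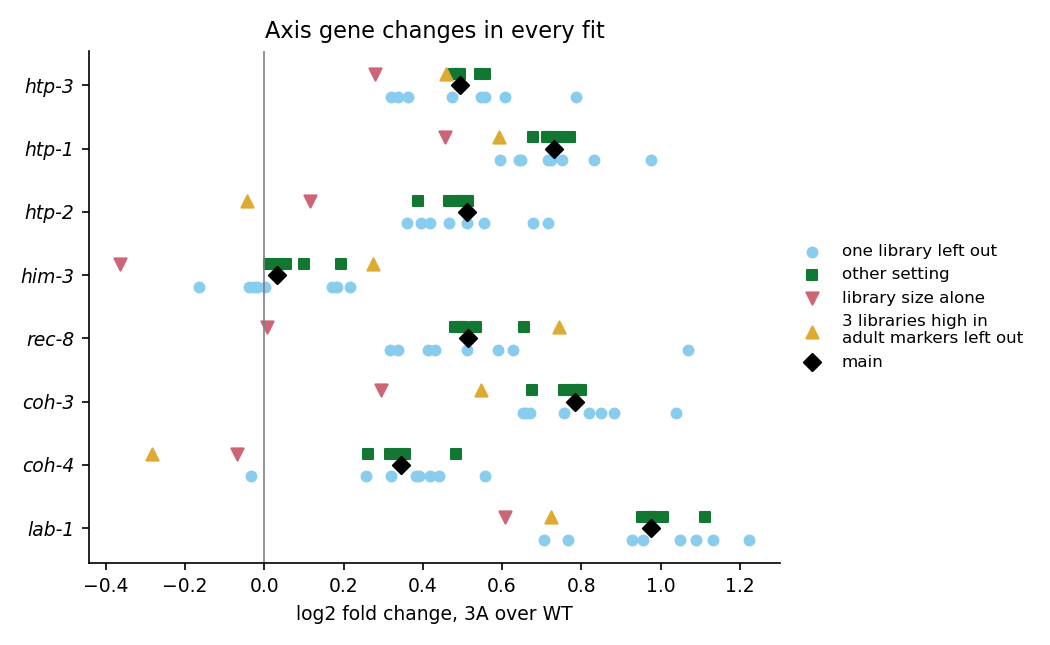
Log2 fold change of 3A over WT (horizontal axis) for each axis gene in every fit, with the reported value as a black diamond. lab-1, coh-3, htp-1, htp-3 and rec-8 stay above 0 in all fits drawn, while him-3, coh-4 and htp-2 fall below 0 in at least 1 fit.

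Each of the 8 axis genes lies head to head with another protein-coding gene. In the Ensembl annotation of WBcel235 the nearest protein-coding gene upstream of each was on the opposite strand, pointing away, with 189 to 529 bases between the annotated spans and a median of 402. Among all 12163 protein-coding genes tested, 46.4% had such an upstream neighbour at any distance and 18.5% within 1000 bases. The arrangement is read from the annotation alone, but it was looked at after the annotation and the expression values had been seen. him-3 lies 189 bases from pgl-1, which encodes a P granule protein of the germline, and rec-8 lies 529 bases from mex-5, which encodes an RNA-binding protein that polarises the early embryo. htp-3 lies 432 bases from tofu-4, a gene found through its role in piRNA production. lab-1 lies 250 bases from asfl-1, a histone chaperone gene, and coh-3 lies 437 bases from bmk-1, a mitotic kinesin gene.

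Of the 8 neighbours 7 were tested, pid-5 beside coh-4 having too few counts. None of the 7 was called by edgeR, where 0.371% of all genes were. Of the 7, 2 had an unadjusted p under 0.05 and were higher in 3A, against 5.72% of all genes, and 6 had a log2 fold change above 0, against 42.8%, with a median of 0.57. For 2 of the 7, tofu-4 and Y73B6BL.23, all 4 3A values lay above all 4 WT values, while 6.16% of all genes tested had groups without overlap. The means of tofu-4 were 0.942 ± 0.129 CPM for WT and 1.74 ± 0.523 CPM for 3A, a log2 fold change of 0.88 (SE 0.34; adjusted p in edgeR = 0.465). Y73B6BL.23, which lies 440 bases from htp-2, had means of 0.889 ± 0.104 and 1.24 ± 0.187 CPM and a log2 fold change of 0.47 (SE 0.33; adjusted p in edgeR = 0.674). mex-5 had a log2 fold change of 0.88 (SE 0.40; adjusted p in edgeR = 0.511), asfl-1 of 0.70 (SE 0.33; adjusted p = 0.520) and pgl-1 of 0.57 (SE 0.52; adjusted p = 0.761). pgl-1 ranged from 0.28 without WT replicate 3 to 1.35 without WT replicate 1, and was 0.025 without the libraries high in ribosomal RNA. bmk-1, the most abundant, had 0.26 (SE 0.25) and ZK616.5, beside htp-1, -0.66 (SE 0.71), or -0.0035 without WT replicate 1. Scaled by library size alone, bmk-1 was at -0.02. mex-5 was at 0.24 without the libraries high in adult markers. Strand-specific counting keeps members of such a pair apart.

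**Figure D5:**
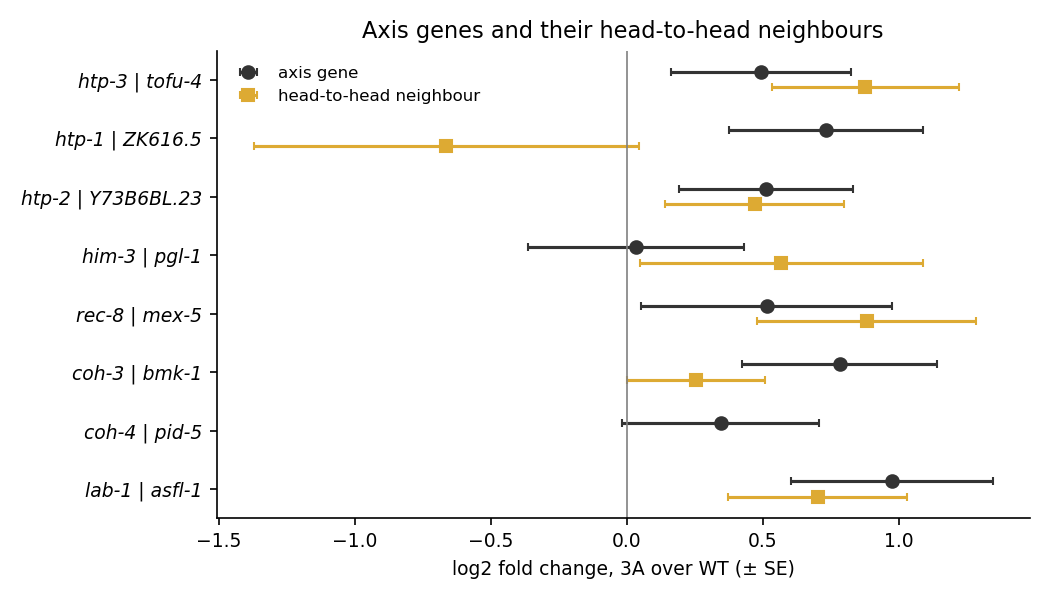
Log2 fold change of 3A over WT (horizontal axis, ± SE) for each axis gene and for the gene head to head with it. pid-5 was not tested, and ZK616.5, at -0.66, is the only neighbour drawn below 0. Without WT replicate 1 it is at -0.0035.

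The genes whose level followed the axis genes most closely were ranked by Pearson correlation of log2 CPM with the mean of the 8 scaled axis profiles. The libraries share their depth and composition differences, and 12656 genes were ranked over only 8 libraries, so the ranking is a description. The nearest were trcs-1 (r = 0.985), ekl-1 (0.978), hpr-17 (0.976), apc-10 (0.976) and ZK1058.3 (0.974). hpr-17 encodes a subunit of the checkpoint clamp loader and apc-10 a subunit of the anaphase-promoting complex. None of the 5 was called by edgeR, with log2 fold changes from 0.55 for ZK1058.3 to 1.17 for apc-10 (SE 0.31; adjusted p = 0.247; DESeq2 adjusted p = 0.0475). The mean axis profile was itself lower in every WT library (-0.86 to -0.16) than in any 3A library (-0.085 to 1.07). Genes picked for following it are therefore higher in 3A by that choice, and their fold changes and p-values are no separate result. Each axis gene was also set against the mean of the other 7, with r of 0.845 for coh-3, 0.771 for lab-1 and 0.640 for htp-1 at the upper end and 0.398 for rec-8 and 0.098 for him-3 at the lower. him-3 thus had the lowest of these r values. They include the difference between genotypes, for which him-3 had the smallest log2 fold change (0.03). Counting error also lowers r, and the lowest him-3 library held 8 read pairs.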

How the data were processed

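Strand-specific, poly(A)-selected RNA-seq libraries of whole late embryos were compared, 4 of WT and 4 of 3A. The authors deposited raw counts per gene and library. The submitters' processing notes name fastp, STAR, HTSeq, DESeq2 and WBcel235. Versions and the annotation release are not given in the sources used here. Of all reads in the files, 1.82% to 14.4% per library were set aside as aligned to several places, 0.404% to 0.925% as ambiguous between genes and 0.661% to 0.985% as outside genes. These were left out of library sizes.

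The counts went into edgeR 4.0.16 (R 4.3.3). The filter was filterByExpr with a minimum count of 10, the scaling was TMM, and the test was the quasi-likelihood test without a replicate block, with Benjamini-Hochberg adjustment over 12664 genes. The SE is the log2 fold change divided by the square root of F. The test was also run on counts simulated from each gene's fitted spread. Those counts leave out the adult marker and ribosomal RNA differences between libraries, so no conclusion is drawn from them. Symbols came from a supplied table, positions and exon lengths from Ensembl release 115. A floor of 3 counts equals 0.0229 to 0.275 CPM and covers counting error only. Libraries of a genotype differed by more than counting noise (chi-square over its degrees of freedom at least 60.3), so none was merged as a library deposited again; this does not show that they came from separate cultures. No label says whether replicates were separate cultures, so p-values measure the spread between these samples.

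Genes named are the 8 axis genes, lin-52, the gene with the smallest p and any called gene in each context list, and the 5 nearest profiles. Members and lists were chosen with earlier results of these data known. The head-to-head neighbours, the 4 count ratios (two-sided exact permutation tests over 70 arrangements, smallest p 0.0286) and the related levels per length were chosen after values were seen. rev-7 had no match. Alternatives were other scalings, ribosomal RNA genes removed, no filter, DESeq2 1.42.0, a replicate block and each library left out. Added after seeing the data were fits without the libraries with over 50 CPM of adult markers or over 10% ribosomal RNA. Promoter and protein sequences were not used here.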

Additional observations from a re-analysis of the deposited data

Results flagged for a closer look

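In 3A, him-3 was at 0.733 CPM in replicate 4 and at 1.26 to 1.30 CPM in the other 3 libraries. The gap between replicate 4 and the nearest of the others took up 0.928 of the group's range, above Dixon's critical value for 4 values. It was the only flag among 16 groups of 4 values examined, and chance flags about 5% of groups. Replicate 4 held 8 him-3 read pairs, and 40.7% of its gene counts came from ribosomal RNA genes.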

How the results depend on the processing

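No axis gene was called in any of the 16 alternative fits. The number of the 8 above 0 was 6 to 8, and the number with an unadjusted p under 0.05 was 0 to 3. The count of all genes called, 47, was 10 with library size alone, 71 without a filter, 169 with DESeq2, 18 to 196 with 1 library left out (196 without WT replicate 1), 1 without the libraries high in adult markers and 17 without those high in ribosomal RNA. With library size alone him-3 was at -0.36, coh-4 at -0.068, lin-52 at -0.37 and bmk-1 at -0.020. With 1 library left out him-3 ranged from -0.16 to 0.22, coh-4 from -0.034 to 0.56 and lin-52 from -0.21 to 0.46. Without the libraries high in adult markers htp-2 was at -0.044, coh-4 at -0.28 and lin-52 at -0.20. lin-52, at 0.0032 in the reported fit, was also at -0.00045 with relative log expression scaling, -0.018 without ribosomal RNA genes, -0.020 without a filter and -0.55 without the libraries high in ribosomal RNA. The cause was not tested.

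Same-numbered libraries had deviations that correlated at 0.57, 0.60, 0.18 and 0.0085 for replicates 1 to 4, and 3 of 8 libraries correlated best with their own number. Since replicate 4 does not reach 0.1, the numbers are not taken as pairs. With the replicate block 175 genes were called, 0 of them axis genes, and the lowest adjusted p of an axis gene was 0.130, that of lab-1. sep-1 was called in it, at 1.32 (adjusted p = 0.0278). Depth limits rec-8, him-3 and htp-1 most, with 7, 8 and 10 read pairs in their lowest libraries.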
